A study of Homo sapiens with 22 samples.

Results

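In 1 list of PSF-CLIP peaks from vehicle-treated LNCaP cells, 5055 of 7691 peaks overlapped no gene locus. These 5055 regions, called members here, are the subject of the text. They are peaks of the second vehicle list (vehicle replicate 2) that share no base with any RefSeq locus named in the 12 RIP and input count files of the series. The 4 peak lists together hold 69059 peaks. All 4 come from LNCaP, an androgen-responsive human prostate cancer line, after 24 h of the androgen dihydrotestosterone (DHT, 10 nM; 2 lists) or of ethanol vehicle (2 lists). Beforehand all cells spent 3 days in medium with 2.5% charcoal-stripped serum, and for CLIP they were irradiated with ultraviolet light at 150 mJ/cm2. The RIP libraries pair a PSF immunoprecipitate with an input, 1 library each, after the same DHT or vehicle treatment of 3 lines, namely LNCaP, 22Rv1 (another prostate cancer line) and LTAD, grown in charcoal-stripped serum. No label says that the lists or libraries came from separate cultures, so p-values measure only the spread between these samples, which may be technical.

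PSF, also called SFPQ, is a nuclear protein that binds RNA and DNA, takes part in splicing and is a core protein of paraspeckles. CLIP recovers RNA fragments crosslinked to a protein and reads them as peaks on the genome. Human centromeres consist of a tandem repeat with a 171-base unit, alpha satellite, and several chromosomes carry blocks of satellites II and III, built from diverged CATTC units. Both can be transcribed, and satellite III RNA is known to gather splicing factors in nuclear bodies after heat shock. Such arrays occur in many near-identical copies, and much of them is missing from the GRCh37 assembly.

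The vehicle replicate 2 list stood apart from the other 3 before any comparison. It was the shortest, with 7691 peaks, against 23580 in DHT replicate 1, 13546 in DHT replicate 2 and 24242 in vehicle replicate 1. Its peaks had a median width of 139 bases, against 410, 158 and 491 bases in those lists. The first-numbered lists thus held wider peaks than the second-numbered ones, in both treatments. The read depth behind the lists is unknown. Each peak's score is the authors' own value, which ranks peaks of 1 list only. The deposited names of the second-numbered pair add the letter m to the antibody, which no label explains. In the LNCaP RIP and input libraries the luminal markers KLK3, FOLH1, TMPRSS2, KRT8, KRT18 and HOXB13 were present, and the basal markers KRT5 and TP63 were at 0 reads in all 4, while the basal marker KRT14 had 0 to 4. Of the other lists, PTPRC (leukocyte) was at 0 and CHGA (neuroendocrine) at 0 or 1 read, while SYP had 5 to 30 and ENO2 44 to 324, CD68 had 11 to 102, and the stromal VIM, COL1A1 and ACTA2 had 74 to 232, 11 to 162 and 2 to 35. Their part in the results was not tested.

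The sequences that set the members apart are shown first, on the plus strand of GRCh37, since the lists give no strand. In the fullest 1 Mb stretch of chromosome 4 the highest-scoring member, chr4:49110063-49110746, begins with diverged CATTC units, and the highest-scoring member of a block on chromosome Y, chrY:13811064-13811271, carries the same unit on the opposite strand. Capitals mark CATTC and GAATG, its reverse complement.
chromosome 4 member: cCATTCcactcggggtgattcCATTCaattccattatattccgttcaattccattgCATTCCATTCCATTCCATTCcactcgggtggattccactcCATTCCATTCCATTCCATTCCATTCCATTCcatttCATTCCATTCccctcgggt
chromosome Y member: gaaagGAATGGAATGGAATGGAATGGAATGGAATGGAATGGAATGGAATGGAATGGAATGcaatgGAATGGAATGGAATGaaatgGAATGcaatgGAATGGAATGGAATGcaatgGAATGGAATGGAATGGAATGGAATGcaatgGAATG
The 171-base repeat is shown by the first 2 units of chr1:121484040-121485456, the highest-scoring member whose first 2 units share most bases without a gap, a choice made after the sequences were seen. Capitals mark the 113 of 171 positions (66.1%) at which both units have the same base.
chromosome 1 member, unit 1: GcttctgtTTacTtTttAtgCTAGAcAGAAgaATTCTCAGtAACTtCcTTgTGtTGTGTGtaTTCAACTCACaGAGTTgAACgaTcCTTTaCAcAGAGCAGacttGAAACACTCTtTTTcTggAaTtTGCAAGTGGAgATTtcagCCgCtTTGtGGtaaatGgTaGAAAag
chromosome 1 member, unit 2: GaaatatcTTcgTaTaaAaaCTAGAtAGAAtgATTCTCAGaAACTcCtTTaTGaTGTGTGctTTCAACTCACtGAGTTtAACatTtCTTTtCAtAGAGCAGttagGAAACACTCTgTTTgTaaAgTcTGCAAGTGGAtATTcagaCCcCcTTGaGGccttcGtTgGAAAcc
The member with the highest score of all, chr5:9993-11785 at 3220.51, is telomere repeat at the start of the assembled chromosome.

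Members were sorted by sequence into classes. The unit of 171 bases is the most frequent distance, between 100 and 1000 bases, at which 8-base words recur around the peaks of the list. A member counted as CATTC repeat where CATTC or GAATG covered at least 20% of it, and as 171-base repeat where at least 10% of the 8-base words in the surrounding sequence recurred at multiples of 171 bases. By this, 907 members (17.9%) were 171-base repeat and 768 (15.2%) were CATTC repeat. A further 211 (4.17%) held another tandem repeat, 8 held the telomere unit, and 3139 (62.1%) held none. The remaining 22 lie in the part of chromosome Y that is masked in the genome copy used. Of 84036 windows of 140 bases taken every 20 kb outside gene loci, 0.428% were 171-base repeat and 0.0583% were CATTC repeat.

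The satellite members were nearly absent from the other 3 lists. Outside gene loci, DHT replicate 1 held 1 peak of 171-base repeat and 8 of CATTC repeat among 6670. DHT replicate 2 held 4 and 19 among 5742, and vehicle replicate 1 held 1 and 13 among 6579. Inside gene loci, the vehicle replicate 2 list itself held 8 and 14 such peaks among 2636. The satellites thus stand in 1 vehicle list, and their share was not repeated in the other. The vehicle lists also differ in the letter m of the antibody name, and no other list shares both treatment and name.

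**Figure D1:**
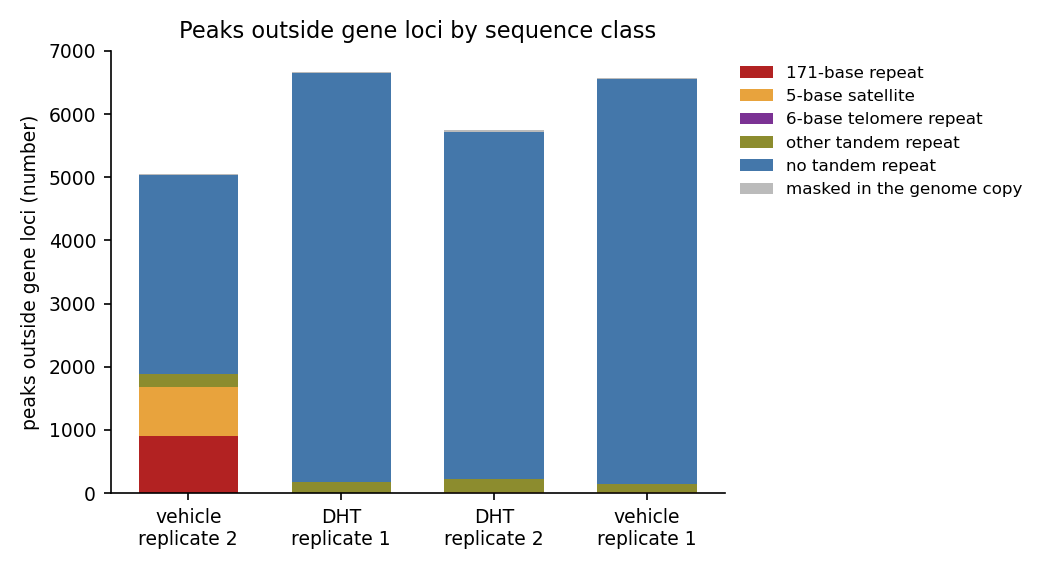
Number of peaks outside gene loci (vertical axis) in each CLIP list, stacked by sequence class. The orange and red segments, CATTC (5-base) and 171-base repeats, are visible in vehicle replicate 2 with 768 and 907 peaks and hold at most 19 and 4 peaks in the other lists.

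Scores were higher for members with a tandem repeat of any class than for those with none. The median score was 113 for 171-base members, 129 for CATTC members, 96.6 for members with another tandem repeat and 124 for the 8 telomere members. It was 68.5 for members with no tandem repeat and 66.0 for the list's peaks inside gene loci. Among the latter, the 129 peaks with another tandem repeat had a median of 104. Behind the telomere member of chromosome 5, 26 members share the next score, so the 12 highest cannot be separated and all 27 are described together. Of these, 25 are CATTC members 1507 to 7163 bases long within chrY:58819992-58917665, each with 32.4% to 34.7% of its length in the unit. The last is the 171-base member of chromosome 1 shown above. None of the 25 overlapped a peak of another list, whereas the chromosome 1 member did so in both DHT lists.

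Members were spread over every chromosome but most dense on Y. Chromosome 4 held 446 members, X held 417, 2 held 346 and 1 held 318. Per Mb outside gene loci, Y held 11.8 members, 19 held 5.20, 16 held 4.67 and 10 held 4.28. Of the 241 members on Y, 185 were CATTC repeat. Without the 3 satellite classes Y held 2.75 members per Mb, and chromosomes 19 and 16 held 3.92 and 3.10, beside 2.00 over all chromosomes. Both Y densities count the 22 masked members, while the masked sequence is not in the length, so they are too high. Outside the satellites and the masked part, Y held 9 members with another tandem repeat and 25 with none, in 20.4 Mb. Chromosome 16 likewise held 49 with another tandem repeat and 100 with none, in 48.0 Mb. In its bin from 46000001, 35 members with another tandem repeat lie beside 40 of CATTC repeat. The highest-scoring of the 35, chr16:46423868-46425293, has 19.3% of its length in CATTC or GAATG, just under the 20% threshold. Chromosomes 13 and 18 had the lowest densities, 1.45 and 1.71 members per Mb.

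**Figure D2:**
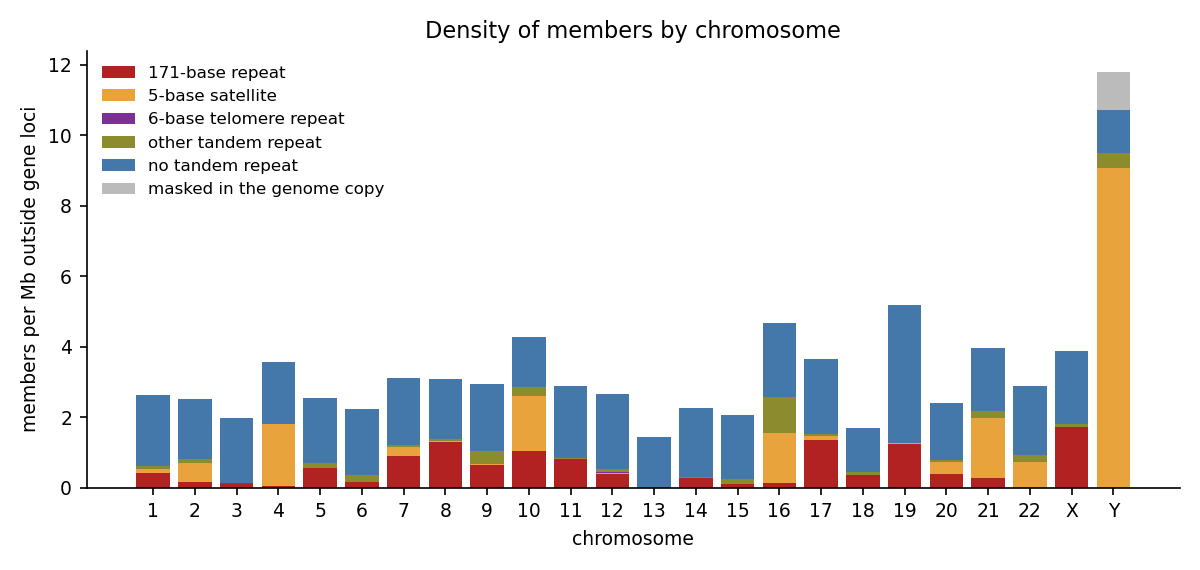
Members per Mb of sequence outside gene loci (vertical axis) for each chromosome, stacked by sequence class. Chromosome Y reaches 11.8 members per Mb, mostly CATTC (5-base) satellite, and chromosome 13 has the lowest bar at 1.45. The Y bar includes 22 masked members whose sequence is not in its length.

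Clustering by 1 Mb was strong. Bins of 1 Mb that held 5 or more members numbered 123 of the 1742 with any, and contained 2241 members (44.3%). In the other lists such bins held 61.0% (DHT replicate 1), 35.1% (DHT replicate 2) and 61.4% (vehicle replicate 1) of the peaks outside genes, but their fullest bins held 49, 25 and 59 peaks, against 219 here. The 20 fullest bins contained 1436 members (28.4%), of which 701 were 171-base repeat, 643 CATTC repeat, 74 another tandem repeat and 18 no tandem repeat.

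The fullest bin, on chromosome 4 from base 49000001 to 50000000, held 219 members, all of them CATTC repeat. Its highest-scoring member, the one shown above at 618.52, lies 46.0 kb past the end of CWH43, the nearest gene. Only 10 of the 219 overlapped a peak of another list, in each case DHT replicate 2. The next bin, on chromosome 10 from 42000001, held 164 members, 81 of CATTC and 73 of 171-base repeat. There chr10:42394670-42396220 scored 2429.63, at 431 kb from LOC441666. The third, on Y from 13000001, held 133 members, 124 of them CATTC repeat, and its top member lies 707 kb from GYG2P1.

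Both remaining bins of the 5 fullest held mostly 171-base repeat. A bin on X from 61000001 held 129 members, 128 of 171-base repeat, and none overlapped a peak of another list. Its highest member, chrX:61701831-61702544, scored 497.76 and lies 865 kb from SPIN4. The bin on chromosome 7 from 61000001 held 83 members, 66 of 171-base and 13 of CATTC repeat, and chr7:61968203-61969731 scored 2486.68 there, 782 kb from ZNF733P. Of the 171-base members 97.0% and of the CATTC members 99.0% lay within 1 Mb of an assembly gap of at least 50000 bases. The same held for 42.6% of all members, 12.1% of the list's peaks inside genes and 10.9% of the windows.

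The median distance of a member to the nearest gene end was 128 kb, with quartiles of 33.1 and 491 kb. Windows outside gene loci had a median of 99.9 kb. Outside peaks had medians of 52.3 kb in DHT replicate 1, 46.8 kb in DHT replicate 2 and 55.6 kb in vehicle replicate 1, so members lay farther from genes than the peaks of each other list. Medians were 549 kb for 171-base members and 386 kb for CATTC members, against 68.5 kb for members with no tandem repeat. Within 10 kb of a gene lay 533 members (10.5%), 281 of them nearest to a 3′ end and 252 to a 5′ end.

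**Figure D3:**
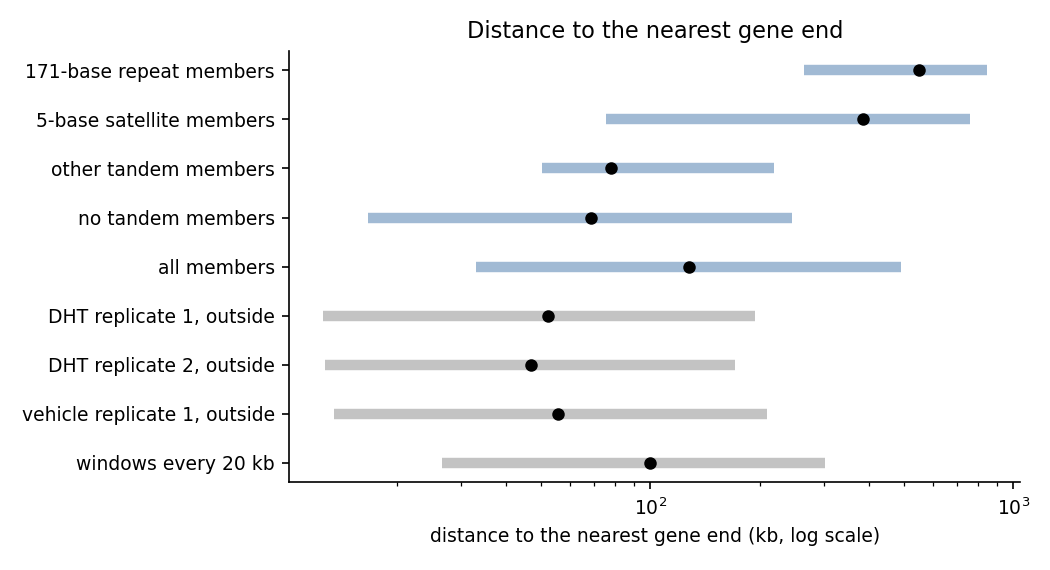
Distance to the nearest gene end in kb on a log scale (horizontal axis). Points are medians and bars run between the quartiles. The 171-base and CATTC (5-base) members have medians of 549 and 386 kb, and the outside peaks of the other 3 lists lie between 46.8 and 55.6 kb.

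The 5 farthest members all lie near the end of Y, and 1 of them was overlapped in vehicle replicate 1. Among the loci used here RBMY2EP is their nearest gene, at 35569584 bases for the farthest, which is a masked member. Such distances depend on those loci, which are sparse at the ends of X and Y. For chrX:185509-186398, for example, the nearest is XG at 2483694 bases. The nearest member, chr18:108935-109061, lies 3 bases from the start of ROCK1P1, a pseudogene copy of part of ROCK1. The next, chr1:755254-755552, lies 39 bases past FAM87B and was overlapped in all 3 other lists. The other nearest members lie 67 bases from MIR200A, a microRNA of the epithelial miR-200 family, 96 bases from PSMA6, a proteasome subunit, and 100 bases from MIR210HG, host of a hypoxia-induced microRNA.

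"Outside genes" depends on the annotation. GENCODE v44 lifted to GRCh37 lists genes that the files do not, and 3868 members (76.5%) overlap none of its genes. A protein-coding gene overlaps 396 members and a long noncoding RNA 723 more, but 79 members (1.56%) lie in a GENCODE exon. Of the 22 masked members on Y, 6 overlap a GENCODE protein-coding gene. The satellite members are little touched, since 99.2% of 171-base and 97.7% of CATTC members overlap no GENCODE gene.

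Fewer members than in-gene peaks of the same list were found again elsewhere. A peak overlapped 843 members (16.7%) in DHT replicate 1, 584 (11.6%) in DHT replicate 2 and 928 (18.4%) in vehicle replicate 1. Among the list's 2636 peaks inside genes the shares were 35.2%, 26.3% and 37.1%, and the 95% Wilson intervals of both sets do not overlap in any list. Those intervals cover counting error only and treat the peaks of 1 library as independent. Members that share a sequence or an array are not independent, so the intervals are too narrow. Of all members 3933 (77.8%) met no peak of another list, and 402 (7.95%) met one in all 3. Of the list's peaks inside genes 58.6% met none and 22.3% met one in all 3.

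Overlap was split by class. Of the 907 members with 171-base repeat, 1 was overlapped in DHT replicate 1, 3 in DHT replicate 2 and 0 in vehicle replicate 1. Of the 768 CATTC members, 0.651%, 2.34% and 0.911% were overlapped. Members with another tandem repeat had shares of 38.4%, 25.6% and 42.7%, and those with no tandem repeat 23.8%, 16.1% and 26.2%. Peak width differs between the lists, with the wider first-numbered lists covering more sequence.

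**Figure D4:**
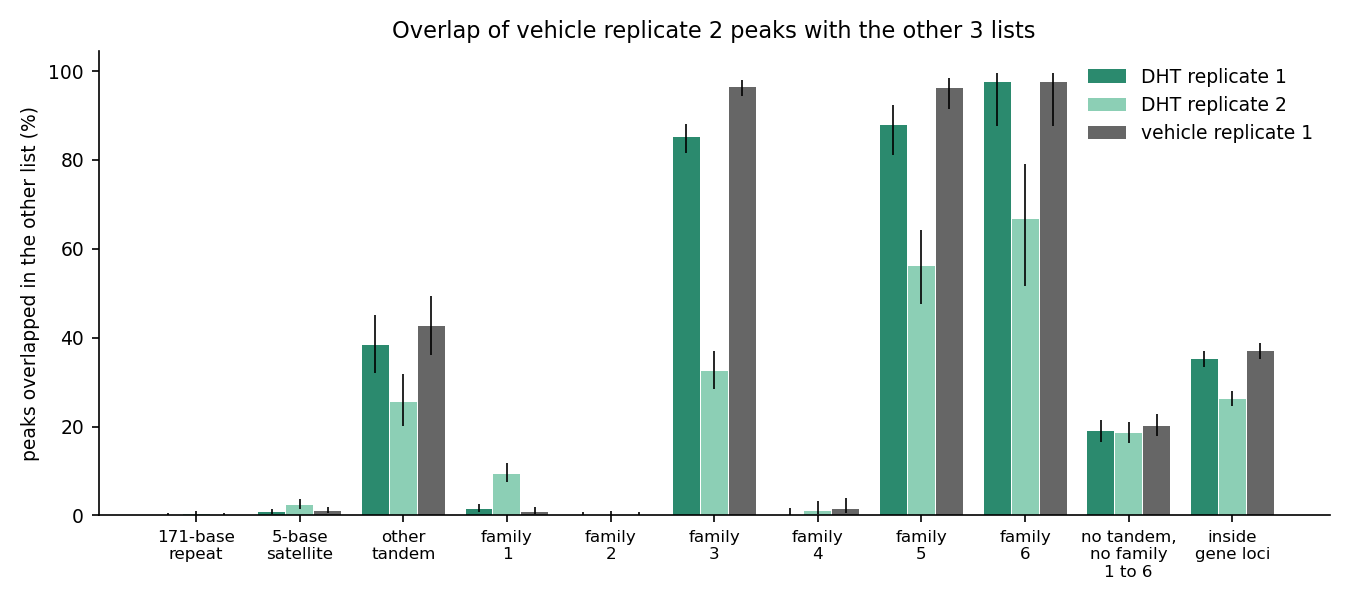
Share of vehicle replicate 2 peaks overlapped by at least 1 base in each of the other 3 lists (vertical axis, %), by sequence class or family of members and for peaks inside gene loci. Bars are shares and lines 95% Wilson intervals. Families 3, 5 and 6 reach 96.5%, 96.2% and 97.6% in vehicle replicate 1, whereas 171-base members are near 0 in each list.

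Members without tandem repeat mostly had many copies in the genome. At the median, the 30-base words of a member of this class occur 348 times. When members sharing at least 30 words of 24 bases were linked, 2492 of the 3139 fell into 95 families, and 647 stood alone. These families were formed from sequence alone and are numbered by size, with no name given. Members of a family share their sequence and are not independent.

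Family 1, the largest with 719 members, shares words with 7SL RNA, the RNA of the signal recognition particle from which Alu elements derive. In 53.7% of its members, 12-base words of RN7SL2 covered at least 10% of the sequence, against 4.74% of windows outside genes. It was rarely found again, with 1.39% overlapped in DHT replicate 1, 9.32% in DHT replicate 2 and 0.834% in vehicle replicate 1. Yet peaks with its words were common at other places in DHT replicate 2, where they made up 46.8% of outside peaks, against 21.4% in vehicle replicate 2. In the first-numbered lists they made up 6.62% (DHT) and 4.36% (vehicle), and 3.37% of windows outside genes shared its words.

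Family 3, with 462 members, was found again far more often. Of its members 85.1% were overlapped in DHT replicate 1, 32.5% in DHT replicate 2 and 96.5% in vehicle replicate 1. Its words occurred in 9.24% of members with readable sequence, in 25.4%, 10.4% and 27.7% of the outside peaks of those lists, and in 0.0619% of windows outside genes. A peak counted where it shared at least 30 words of 24 bases, which wider peaks reach more easily. Outside peaks of those lists had median widths of 382, 149 and 470 bases, against 138 for members and 140 for the windows. Of family 5 (132 members) 87.9%, 56.1% and 96.2% were overlapped in DHT replicate 1, DHT replicate 2 and vehicle replicate 1, and of family 6 (42 members) 97.6%, 66.7% and 97.6%. Of family 5 members 53.0% lie within 10 kb of one of family 3. Families 2 (581 members) and 4 (222 members) consist of words with 3858 and 2110 genome copies at the median, and at most 3 of their members were overlapped in any list.

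Among the 402 members met in all 3 other lists, the highest score belonged to chr12:132619807-132620962, at 1377.43, a tandem repeat 177 bases past the end of DDX51, an RNA helicase of ribosome assembly. Other members share their sequence. The members chr5:68956400-68957173 and chr5:69536141-69536914 lie in the duplicated region that holds SMN2 and have the same score, 307.32. In all, 352 members share their exact sequence with another member, and in 49 of the 135 such sequences every copy had the same score within 0.005. How reads with several placements were treated is not given in the sources used here, so peaks at separate copies and reads of 1 copy placed at several cannot be told apart.

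The other 7 of the 10 highest-scoring members in all lists scored 268.03 to 650.87. The highest of them is chrX:185509-186398, with a repeat of 55 bases, and 2 more lie 14.3 and 16.4 kb from PPP2R2D, a regulatory subunit of protein phosphatase 2A.

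The RIP libraries give a second readout, as reads per intergenic interval between neighbouring genes. An interval is far longer than a member, with a median of 139 kb where it holds one, so its reads need not come from the member. Input libraries held 1073228 to 3014049 mapped reads and PSF-RIP libraries 4641602 to 10439461. Intergenic intervals took 10.7% to 13.9% of mapped reads in input, but 5.84% to 6.79% in PSF-RIP. The main fit scales by interval reads, so a higher interval is higher relative to other intervals, not to all mapped reads. Of 5967 intervals tested with edgeR's quasi-likelihood test and Benjamini-Hochberg adjustment, 35.9% changed, 20.6% being higher in PSF-RIP than in input and 15.4% lower. Of all calls 57.3% were thus higher. With mapped nuclear reads as library size and no TMM scaling, 33.8% were higher and the median log2 fold change of all intervals was -0.10. Below, this alternative is called without TMM scaling, though it changes the library size too. Of the 958 tested intervals that hold a member, 167 (17.4%) were higher and 131 (13.7%) lower, shares near those of all intervals. Without 22Rv1, 85 of 817 such intervals were higher, beside 715 of all 5061 tested. Without LTAD, 109 of 1012 were higher, beside 805 of all 6370. The median log2 fold change was 0.13 over these and 0.14 over all.

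Of 33 tested intervals with 5 or more CATTC or 171-base members, 8 (24.2%) were higher and 2 (6.06%) lower, so both directions occurred. Of all intervals 20.6% were higher and 15.4% lower. The median log2 fold change was 0.25 over the 33, beside 0.14 over all. The chromosome 4 interval, chr4:49064096-52709165, holds 219 members. Its reads per 1000000 mapped were 65.1 (DHT) and 84.6 (vehicle) in LNCaP PSF-RIP, against 52.8 and 60.1 in LNCaP input. It was higher in PSF-RIP in 6 of 6 pairs, with a log2 fold change of 0.48 ± 0.13 (SE; edgeR adjusted p = 0.00404). Without TMM scaling it was 0.28 with an adjusted p of 0.0924. The chromosome Y interval, chrY:9749572-14517914, holds 134 members and had 95.9 (DHT) and 108 (vehicle) reads per 1000000 in LNCaP PSF-RIP, against 266 and 248 in LNCaP input. It was lower in 6 of 6 pairs, at -1.27 ± 0.14 (edgeR adjusted p = 1.33e-08).

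The largest satellite interval fold was on chromosome 20, in chr20:26189870-29558487, which holds 13 members, all of 171-base repeat. It had 3479 reads in PSF-RIP and 68 in input of vehicle-treated 22Rv1, 382 and 50 in DHT-treated LNCaP, and 117 and 30 in vehicle-treated LNCaP. The log2 fold change was 2.44 ± 0.28 (edgeR adjusted p = 3.54e-08), ranging from 0.41 in the LNCaP vehicle pair to 3.64 in the 22Rv1 vehicle pair. The X interval with 187 members had a log2 fold change of 0.10 ± 0.15 (edgeR adjusted p = 0.659), and -0.10 without TMM scaling. The chromosome 8 interval with 120 members had -0.29 ± 0.18 (adjusted p = 0.219), but 0.01 without 22Rv1, and without TMM scaling it was called lower, at -0.49 (adjusted p = 0.0371). The chromosome 10 interval with 179 members was at 0.68 ± 0.21 (adjusted p = 0.0103), but lost its call without 22Rv1 (0.36, adjusted p = 0.297), without the vehicle pair of 22Rv1 (0.47, adjusted p = 0.0997), without LTAD (0.66, adjusted p = 0.0714) and without TMM scaling (0.50, adjusted p = 0.0721).

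**Figure D5:**
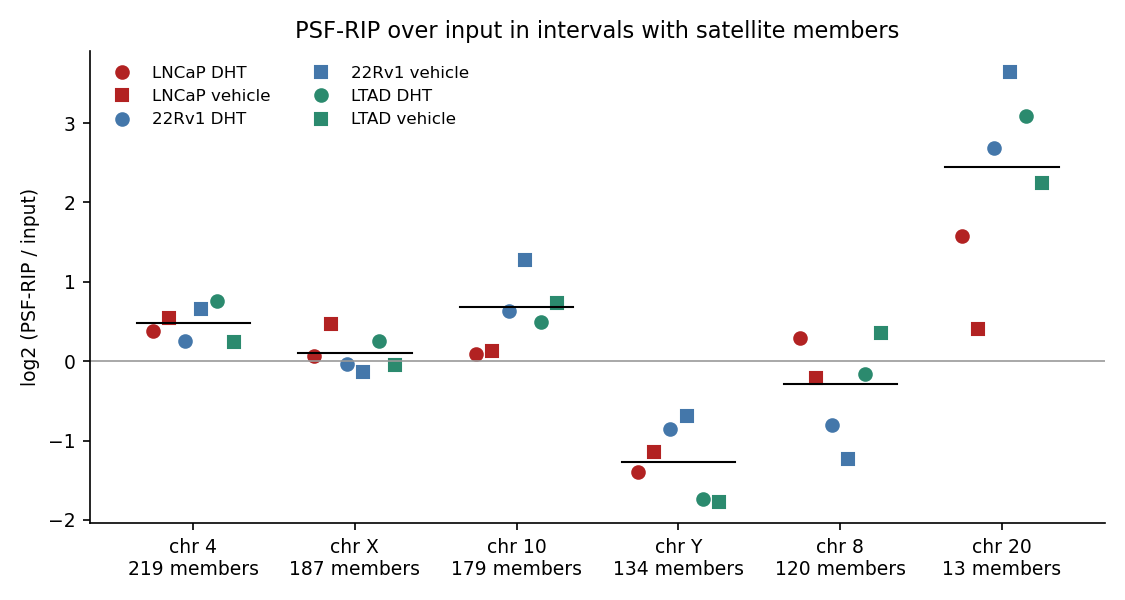
Log2 ratio of PSF-RIP to input (vertical axis) in the 5 intergenic intervals with most members and in the chromosome 20 interval. Circles are DHT and squares vehicle pairs, colours are lines, and black bars the edgeR log2 fold change. All 6 pairs lie below 0 for Y, at -1.27, and above 0 for chromosomes 4, 10 and 20.

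Of the 6 intervals named lowest in PSF-RIP, 4 hold members at copies of 7SK or 7SL RNA. The member chr6:52860426-52860733, at a score of 244.96, overlaps RN7SK, the 7SK RNA that keeps the transcription elongation factor P-TEFb inactive. Its interval had 2833 reads in PSF-RIP and 74703 in input of DHT-treated LNCaP, and 6563 and 99019 in vehicle-treated LNCaP. The log2 fold change was -5.92 ± 0.20 (edgeR adjusted p = 3.87e-21), lower in 6 of 6 pairs. An interval on chromosome 14 with members at RN7SL3 and RN7SL2 was at -5.86 ± 0.20 (adjusted p = 4.59e-21). The neighbouring interval, whose member chr14:50053301-50053591 is 98.6% covered by RN7SL2 words, was at -6.10 ± 0.25, and one holding a copy of 7SK, RN7SKP255, at -5.99 ± 0.16. These members are CLIP peaks whose intervals were lower in PSF-RIP than in input. The other intervals named lowest were chr1:567794-621095 at -4.42 ± 0.15 and chr7:92546502-92728825 at -5.20 ± 0.36. The chromosome 7 interval had few reads, with 0 to 4 in each PSF-RIP library and 15 to 24 in each input.

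Besides chromosome 20, the intervals named highest were chr1:4843852-5624130 at 2.11 ± 0.47, chr1:219730667-220046618 with an adjusted p of 3.84e-04, chr21:1-9825831 at 1.60 ± 0.20, chr17:6803669-6888441 at 1.58 ± 0.32 and chr3:195460425-195473637 at 1.53 ± 0.44, each with 1 or 3 members. The first lost its call without the DHT pair of 22Rv1 (1.03, edgeR adjusted p = 0.135) and with DESeq2 (1.47, adjusted p = 0.136). It was higher in 5 of 6 pairs, at 0.14 (DHT) and 0.02 (vehicle) in LNCaP, and at -1.60 in the LTAD vehicle pair. The chromosome 3 interval lost its call without the vehicle pair of 22Rv1 (1.02, edgeR adjusted p = 0.0678) and without 22Rv1 (1.10, adjusted p = 0.0800).

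For DHT against vehicle, 2.23% of the 5967 intervals changed, with 1.41% higher and 0.821% lower (edgeR adjusted p under 0.05). Of these calls 63.2% were higher, but 36.1% without TMM scaling. Of the 958 that hold a member, 20 (2.09%) were higher and 14 (1.46%) lower. Without LTAD these were 7 higher and 3 lower of 1012, beside 28 higher and 14 lower of all 6370. The fit counts the input and the PSF-RIP library of a line and treatment as separate samples. Their deviations from the group means correlated at 0.558 to 0.822 over intervals, and each treatment has only 3 lines. The DHT p-values may thus be too small, and the pair block has no DHT term to check them. The androgen-induced list has 28 genes, and 4 are the nearest gene of a member. For 3 of them the interval with the member was tested and was higher with DHT. At ACSL3, a fatty acid activating enzyme, the interval was at 1.16 ± 0.15 (adjusted p = 5.57e-06). At ABCC4, a multidrug transporter, it was at 1.29 ± 0.20 (adjusted p = 1.59e-04), and at HERC3, a ubiquitin ligase, at 1.36 ± 0.36 (adjusted p = 0.0368).

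The HERC3 member, chr4:89630035-89630283, lies 341 bases past the gene's end and was overlapped in all 3 other lists. Reads in its interval were 15 in PSF-RIP and 7 in input of LNCaP with DHT, against 7 and 3 with vehicle. PSF-RIP reads were 21 in LTAD with DHT, against 3 with vehicle, and 36 in 22Rv1 with DHT, against 39 with vehicle, where the libraries differ in depth. The ACSL3 member lies 12708 bases past that gene's end and was in no other list. Whether reads past a gene's end belong to its transcript was not tested. The fourth gene, STEAP4, lies 568004 bases from its member. Of the prostate and nuclear long noncoding RNA list, 17 of 21 genes are in the files and 4 are nearest to 11 members: PCGEM1, SCHLAP1, CASC15 and PCAT1, at 21319 bases or more.

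Genes beside members were near the share of all genes. In the fit over 13366 genes, 58.0% changed, with 30.5% higher in PSF-RIP than in input and 27.5% lower (edgeR adjusted p under 0.05). Of the 332 tested genes that are nearest to a member within 10 kb, 100 (30.1%) were higher and 77 (23.2%) lower. Among the highest were SETD4 at a log2 fold change of 1.48 ± 0.20, FAM78A at 1.35 ± 0.22 and OGDHL at 1.27 ± 0.23. PIF1, LRRN2, UNC13B and SDHAP1 lay between 1.15 and 1.25, and each of these 7 was higher in 6 of 6 pairs. Some of these pairs had few reads. In LNCaP, LRRN2 had 1 read in PSF-RIP and 0 in input with DHT, and 4 and 0 with vehicle. PIF1 had 16 and 1 there with DHT, and 3 and 0 with vehicle. FAM78A had 11 and 0 in DHT-treated 22Rv1.

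The lowest were led by ribosomal protein genes. RPS15A and RPS29, proteins of the small ribosomal subunit, were at -3.87 ± 0.10 and -3.55 ± 0.10. COX8A, a subunit of cytochrome c oxidase, was at -2.07 ± 0.10 and MGST1, a glutathione transferase, at -1.81 ± 0.09. TMEM106B, FAM200B, LY6E and CCNC lay between -1.79 and -1.59, and all 8 were lower in 6 of 6 pairs. RPS29 lies 166 bases from the member with RN7SL2 words on chromosome 14. Next to the member with the highest score in all lists, DDX51 was higher in PSF-RIP, at 0.93 ± 0.14 (edgeR adjusted p = 6.20e-06).

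The share of peaks outside genes was set beside treatment over the 4 lists. It was 28.3% and 42.4% in the DHT lists, against 27.1% and 65.7% in the vehicle lists. Means were 35.3% ± 9.97 with DHT and 46.4% ± 27.3 with vehicle (SD, n = 2 each), a difference of -11.1 percentage points with p = 1.00 in a two-sided exact permutation test, whose smallest possible p is 0.333. Between the first-numbered lists the difference was 1.15 points, and between the second-numbered lists -23.3 points. The lists overlap between treatments, and the vehicle lists differ from each other by more than the treatments do.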

How the data were processed

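The members and gene lists were chosen with earlier results of these data known. The deposited peak lists hold a position and a score for each peak, with no strand. Scores start at 50.00, and how the authors called peaks, or placed reads that match several copies, is not given in the sources used here. The authors deposited RIP and input files as raw whole-number counts per transcript, intron and intergenic interval, on hg19 per the file headers. Versions in the submitters' processing notes are 2.1.0 for TopHat2 and 2.2.6 for Bowtie2. They also name Bowtie. A further LNCaP RIP set, whose labels contradict each other, was not used, which leaves out 16 columns in 2 tables. CLIP inputs were not analysed here.

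Overlap means at least 1 shared base, and shares carry 95% Wilson intervals, which cover counting error only and take peaks as independent. Counts per interval (strands summed) and per gene (1 transcript per symbol) were tested with edgeR 4.0.16 in R 4.3.3 by the quasi-likelihood test, with TMM scaling, a filter on low counts, and additive terms for line, treatment and assay. P-values were adjusted by Benjamini-Hochberg with a threshold of 0.05. The fits were first tested on simulated data. Input and PSF-RIP libraries of 1 line and treatment form pairs, from the labels. Their deviations from the group means correlated at 0.558 to 0.942. Pairs were therefore also fitted as a block for PSF-RIP against input, a fit that has no DHT term. Members named are the 12 highest scores with ties, the 10 highest found in all lists, the 5 farthest and 5 nearest, and the top member of the 5 fullest bins. Intervals named are the 6 highest and 6 lowest folds, and genes the 8 highest and 8 lowest within 10 kb. Some items that these rules name are not reported here. Families, telomere members and the intervals with most members were named after their values were seen. Repeat classes and families were computed from GRCh37 with Python 3.11.15 and pysam 0.24.0, with thresholds set after seeing the data. DESeq2 1.42.0, library sizes of mapped nuclear reads without TMM, no filter, left-out lines and pairs, and other overlap rules, thresholds and bins were tried as alternatives.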

Additional observations from a re-analysis of the deposited data

Results flagged for a closer look

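In the interval chr3:195460425-195473637, which holds 1 member 2422 bases from MUC4, the vehicle pair of 22Rv1 had a log2 ratio of PSF-RIP to input of 3.45, far from the other 5 pairs, which lay between 0.50 and 1.28. That input library held 0 reads in the interval and its PSF-RIP library 44. A gap of this size is flagged by chance in about 1 of 20 groups. In the X interval with 187 members, chrX:57937068-62567106, both LNCaP pairs were above 0, at 0.06 with DHT and 0.47 with vehicle, and both 22Rv1 pairs below 0, at -0.03 with DHT and -0.14 with vehicle. The difference between the lines was not tested.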

How the results depend on the processing

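Depth limits the lists in an unknown way, and 1 list carries the satellites. The number of members was 1440 at a score of at least 100 and 2863 in the top 50% of the list by score. With that score minimum, the share outside genes was 29.0% (DHT replicate 1), 38.1% (DHT replicate 2), 29.5% (vehicle replicate 1) and 82.3% (vehicle replicate 2). With loci extended by 10 kb it was 22.2%, 33.4%, 21.6% and 58.8% in the same order, and 56.4% in vehicle replicate 2 without satellite peaks. The difference between DHT and vehicle was -23.3 points without replicate 1 and turned to 1.15 without replicate 2. As a replicate block, from differences within each list number, it was -11.1. Overlap of members in DHT replicate 1, DHT replicate 2 and vehicle replicate 1 was 2.51%, 8.37% and 1.31% when 50% of both peaks had to be shared, which wide peaks cannot meet with narrow ones. It was 19.4%, 17.3% and 19.5% for a peak within 1 kb, and 23.8%, 16.1% and 26.2% for members with no tandem repeat. At a score of at least 100 it was 11.6% in DHT replicate 1 and 12.4% in vehicle replicate 1, and chromosome 4 then held 11.6% of members. Members in bins of 5 or more fell to 241 when members within 10 kb counted once, and to 317 with no tandem repeat. The median distance was 205327 bases to NM_ transcripts only, 323514 at a score of at least 100 and 68524 with no tandem repeat.

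Intervals higher in PSF-RIP numbered 1228, against 690 without TMM scaling and 2287 with no filter, and between 715 (without 22Rv1) and 1152 when a line or pair was left out. It was 805 without LTAD. The pair block gave 1222 higher and 914 lower intervals, and 4426 higher and 3954 lower genes. It moved none of these counts by over 1.5 times and has no DHT term. With DHT, 84 intervals were higher, against 28 to 80 with a line or pair left out. Lower ones numbered 49, against 11 to 49 with one left out, 23 with DESeq2, 108 without TMM scaling and 78 with no filter. The lowest counts came without LTAD or 1 of its pairs. The X interval was at -0.10 without TMM scaling. The chromosome 8 interval was at -0.49 without TMM scaling, where it was called lower (edgeR adjusted p = 0.0371), at 0.00 with no filter and between -0.56 (without LTAD) and 0.01 (without 22Rv1) when lines or pairs were left out. The causes were not tested. Of 220 values of named intervals, 207 kept direction and call, as did all 94 values of named genes. Same-strand alternatives were not run because the lists give no strand.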
